A study of Mus musculus with 49 samples.

Results

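DNA replication and mismatch repair genes form a set of 34 genes that act at the G1/S boundary and in S phase. Each was found by its symbol among the 39179 rows of the count table, 37607 of which carry a symbol, and each had a single row. The values come from 49 tumours of the transplantable mouse colon cancer line CT26 in BALB/c hosts. By treatment, 9 tumours come from mice given vehicle (DMSO, PEG400 and water), 7 from mice given celecoxib at 30 mg/kg a day, 17 from mice given an anti-PD-1 antibody at 200 µg per dose in 2 doses, and 16 from mice given both agents (the combination). Celecoxib inhibits the prostaglandin-producing enzyme COX-2, and the antibody blocks an inhibitory receptor of T cells. Treatment began on day 7 after cell injection and ran for 7 days. The tissue label puts collection at day 7 of treatment and the extraction protocol at day 4, and this was not settled. Tumours are also labelled R or NR, terms that no label explains: vehicle and celecoxib tumours are all NR, anti-PD-1 has 4 R and 13 NR, and the combination has 12 R and 4 NR. Nothing states that every tumour came from another mouse, so each p-value here covers sample-to-sample spread, which may be technical. All groups share the CT26 cells and the host strain, and each sample is a whole tumour, host cells included.

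Cells prepare to copy their DNA in G1, when CDC6 and CDT1 load the MCM2 to MCM7 helicase onto origins, and start when cyclin E with its kinase releases E2F factors from RB. The helicase then runs with CDC45 and the GINS complex, polymerases extend from primers, PCNA tethers them to DNA, and FEN1 and LIG1 seal the lagging strand. MSH6 takes part in recognising mismatches left by copying, and defects in this repair are known in colorectal cancer for a high mutation load and for responses to PD-1 blockade.

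Promoter sequence is shown for a few members because E2F binding is the textbook link between these genes. RefSeq windows on GRCm38.p6, from 250 bases before a start to 50 after it, were found for 28 of the 34 members. Ccne2, Gins1, Gins2, Mcm4, Pole and Rfc2 had no window in the table used. The words searched on both strands were TTTCCCGC, TTTCGCGC, TTTGCCGC and TTTGGCGC, and words on opposite strands can overlap each other. At least 1 of them was present in 12 of the 28 members (42.9%) and in 704 of 27025 genes in the table (2.61%). The word CCAAT, which no E2F-type word contains, was present in 17 of 28 members and in 41.1% of genes. The 12 members with an E2F-type word had a median correlation with the mean of the other members of 0.72 across tumours, and the 16 without had 0.61. The 4 stretches below, chosen among members representing each role, lie before the start and outside annotated exons, and capitals mark E2F-type words.
Msh6, chr17:87974800-87975049, plus strand: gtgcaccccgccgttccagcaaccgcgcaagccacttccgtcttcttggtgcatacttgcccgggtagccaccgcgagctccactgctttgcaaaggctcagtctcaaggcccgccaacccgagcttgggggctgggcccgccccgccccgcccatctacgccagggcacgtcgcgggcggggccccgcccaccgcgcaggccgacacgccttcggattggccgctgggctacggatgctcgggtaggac
Cdc6, chr11:98907982-98908150, plus strand: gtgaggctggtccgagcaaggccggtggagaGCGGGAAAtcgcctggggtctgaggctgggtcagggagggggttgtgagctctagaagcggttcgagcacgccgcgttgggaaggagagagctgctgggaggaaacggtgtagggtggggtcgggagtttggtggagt
Mcm2, chr6:88898781-88899030, minus strand: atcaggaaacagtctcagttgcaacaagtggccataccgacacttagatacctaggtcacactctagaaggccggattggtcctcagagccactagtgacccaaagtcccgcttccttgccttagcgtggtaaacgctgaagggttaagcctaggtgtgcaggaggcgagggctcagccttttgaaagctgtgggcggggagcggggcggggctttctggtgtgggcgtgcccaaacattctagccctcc
Uhrf1, chr17:56304063-56304312, plus strand: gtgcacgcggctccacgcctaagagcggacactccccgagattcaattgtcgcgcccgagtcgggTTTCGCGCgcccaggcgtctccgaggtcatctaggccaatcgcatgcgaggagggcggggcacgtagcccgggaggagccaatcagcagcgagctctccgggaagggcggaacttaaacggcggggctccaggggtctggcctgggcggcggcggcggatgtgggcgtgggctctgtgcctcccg
Cdc6 and Uhrf1 each have 1 word in the stretch shown. The Uhrf1 stretch comes from window 2 of that gene, and its window 1 (chr17:56303087-56303386), not shown, has 0 such words. Msh6 has its only word after the start, and Mcm2 has none in its window. The Cdc6 and Uhrf1 stretches lie inside the annotated gene, between exons, and those of Msh6 and Mcm2 lie upstream of the gene. Matches describe the letters only.

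Libraries held 4251251 to 13671294 counts, and the members took 0.153% to 0.379% of them. All 34 members passed the filter on low counts in every fit, with single counts from 30 (Gins2) to 5834 (Lig1). Levels are CPM, counts relative to the TMM-scaled library size, and list means are in log2 CPM. In the gut markers, Vil1 and Cdx2 were near 0 CPM and Krt20 averaged 52.1 CPM over all tumours. In 13 libraries a list mean for skeletal muscle exceeded 3, or one for skin or adipocytes exceeded 5, and results are also given without them. Anti-PD-1 tumours stood apart in a clock measure (Dbp, Tef, Per2, Per3 and Nr1d2 minus Arntl, in log2 CPM), at 0.65 ± 0.62 (SD, n = 17) against 3.62 ± 0.48 (SD, n = 9) with vehicle, 3.74 ± 0.43 (SD, n = 7) after celecoxib and 3.12 ± 0.98 (SD, n = 16) after both agents.

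Most members moved together from tumour to tumour. After removal of the treatment means, the median Pearson r over 561 pairs was 0.42 (n = 49), and 509 pairs were above 0. These points share library and depth, and r is given as a description. Tyms, which makes thymidylate for DNA, followed the mean of the other members most closely (r = 0.88), followed by Mcm5 (0.87), Mcm3 (0.86) and Cdc6 (0.86). E2f1, the transcription factor gene, did not follow them (r = -0.11), nor did Lig1, the ligase (0.15). Some pairs were closer than most: Mcm7 and Pola1 had an r of 0.85, Mcm4 and Fen1 0.79, and Rfc5 with Lig1 0.69. The Mcm7 gene overlaps Mir25, Mir93 and Mir106b on its own strand and Cops6 and Ap4m1 on the other, so its counts are uncertain. Same-strand overlaps also touch Cdt1 (Gm20388), Pola1 (Gm23557), Pold1 (Mir7053), Pole (Gm26277 and Gm15791) and Rrm1 (Gm45399). Other-strand overlaps also touch Cdc45 (Ufd1), Gins2 (Gse1), Ccne2 (Ints8), Rfc2 (Lat2), Rfc4 (Eif4a2), Rfc5 (Wsb2), Fen1 (Tmem258), Lig1 (Zswim9), Tk1 (Afmid) and Chaf1a (Ubxn6). Pola1 (Gm14780), Pold1 (Gm44833) and Pole (Gm15792) have them as well. Within treatments the spread was widest for Gins2 (SD 0.58 log2) and narrowest for Rfc2 (SD 0.26).

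**Figure D1:**
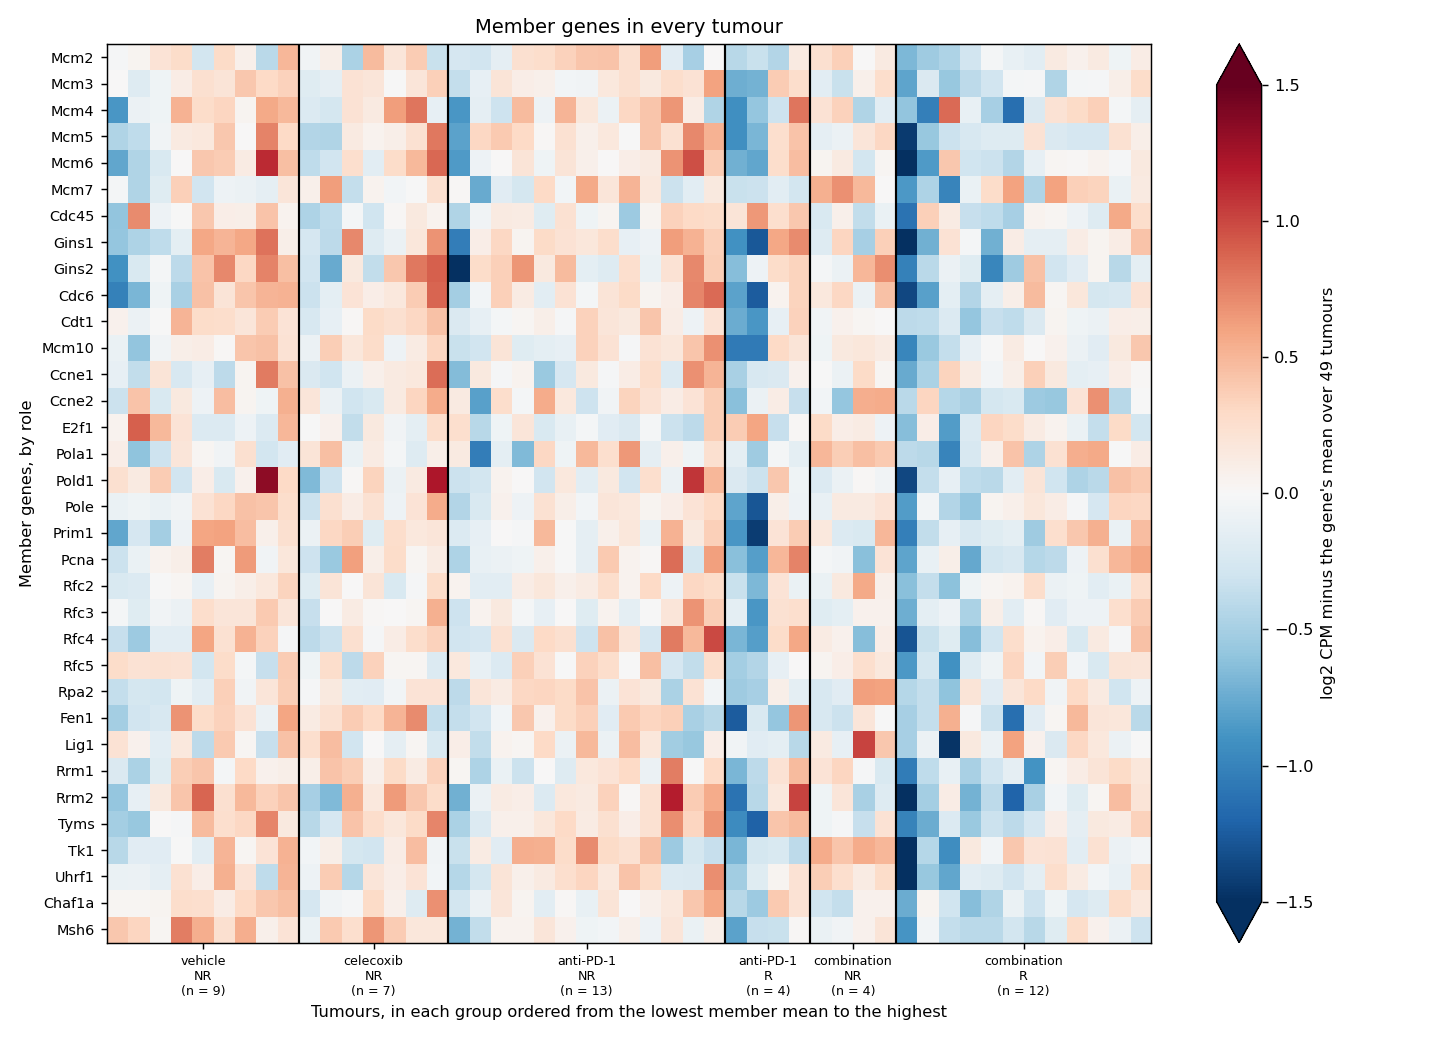
Heat map of the 34 members (rows, by role) in 49 tumours (columns, by treatment and response label), coloured by log2 CPM minus the gene's mean over all tumours, with the scale ending at 1.5 either way. Combination R replicate 14 is the lowest column, in which 31 members were among their 5 lowest tumours, and the E2f1 and Lig1 rows do not follow the others.

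A few tumours held much of the range. The mean over members was 6.18 ± 0.20 log2 CPM (SD, n = 9) with vehicle, 6.17 ± 0.16 (n = 7) after celecoxib, 6.09 ± 0.27 (n = 17) after anti-PD-1 and 5.97 ± 0.28 (n = 16) after both agents. The lowest tumour, combination replicate 14, had a mean of 5.13, and 31 members there were among their 5 lowest tumours. Anti-PD-1 replicates 12 (5.49) and 14 (5.54) came next, with 24 and 18 such members. These 3 tumours are labelled R. The first had a muscle list mean of 6.49 and a G2 and mitosis list mean of 4.97, the lowest of all tumours. The other 2 had high hypoxia and glycolysis list means (7.52 and 8.19) and low macrophage list means (5.67 and 4.98). At the top stood celecoxib replicate 1 (6.42), which also had a muscle list mean of 7.69, and anti-PD-1 replicate 16 (6.41).

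Msh6 had the smallest p of the members in each comparison of antibody-treated tumours with tumours given no antibody. Its lowest, median and highest levels were 73.5, 90.3 and 123 CPM with vehicle and 66.9, 85.9 and 114 CPM with celecoxib. With anti-PD-1 they were 41.1, 69.7 and 81.8 CPM, and with the combination 38.7, 65.4 and 87.4 CPM. All 33 antibody-treated tumours lay below the median of the 16 others (88.1 CPM), and 14 lay below the lowest of these, so the groups overlapped in part. Group means were 92.9 ± 16.02 CPM (SD, n = 9) with vehicle, 88.1 ± 14.6 (n = 7) after celecoxib, 67.1 ± 12.2 (n = 17) after anti-PD-1 and 64.5 ± 12.3 (n = 16) after both agents. In these bulk samples fewer cells of a type and less RNA per cell cannot be told apart.

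Under the combination Msh6 fell by 0.51 log2 against vehicle (SE 0.11, edgeR adjusted p = 0.0436). It was the only member called among 34 (2.94%), where 0.0729% of all genes tested were called. Members were chosen with earlier results of these data known, so such shares are a description and no test of the set. Against vehicle, anti-PD-1 alone gave Msh6 a log2 change of -0.47 (SE 0.11, adjusted p = 0.0701), no member was called, and 0.0874% of all genes were. The next smallest p there were those of Cdt1 (-0.19, SE 0.11) and Pole (-0.20, SE 0.13). The combination against celecoxib gave -0.43 (SE 0.12, adjusted p = 0.545), with no member called and 0.0364% of all genes called, and Cdt1 (-0.26) and Rrm1 (-0.32) had the next smallest p. The first 2 comparisons share the vehicle tumours. Set after these values were seen, a contrast of both antibody treatments against both others gave -0.45 (SE 0.08, adjusted p = 0.00226), where 0.117% of all genes were called and Msh6 was the only member. Cdt1 (-0.23, SE 0.08) and Chaf1a (-0.20, SE 0.08) followed. The celecoxib against vehicle change of Msh6 was -0.08, and no gene at all was called there (0%).

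The call for the combination lay near the limit of 0.05. It was kept in 6 of 10 other settings and in 8 of 25 fits that left out 1 library, with log2 changes of -0.53 to -0.43 and -0.55 to -0.45. It was lost without vehicle replicate 1, 2, 3, 4, 6, 8 or 9 and without combination replicate 1, 2, 4, 6, 8, 10, 11, 13, 14 or 16, with adjusted p from 0.0558 to 0.148. Under anti-PD-1, Msh6 was called without vehicle replicate 5 (adjusted p = 0.0433), vehicle replicate 7 (0.0468) or anti-PD-1 replicate 3 (0.0499). It was also called there with DESeq2 (0.0183), with the T cell list mean as a covariate (0.0127) and with the G2 and mitosis list mean (0.00259), and not in the 7 other settings (0.0588 to 0.787). The contrast of both antibody treatments was called in 49 of 49 such fits and in 8 of 9 other settings. The exception was the clock measure as a covariate, which gave -0.35 (SE 0.13, adjusted p = 0.651, against 9.43e-05 to 0.0297 in the others). In the combination against anti-PD-1 Msh6 had a change of -0.04 (SE 0.09, adjusted p = 0.846). The part of the clock measure in the Msh6 values was not tested beyond that covariate, and the measure itself differs between treatments. Msh6 lies on chromosome 17 from 87975062 to 87990892, plus strand (GRCm38), and overlaps Fbxo11 on the other strand, and the strand setting of the counting is not given. Fbxo11 had a log2 change of 0.12 (SE 0.13) in the combination against vehicle.

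**Figure D2:**
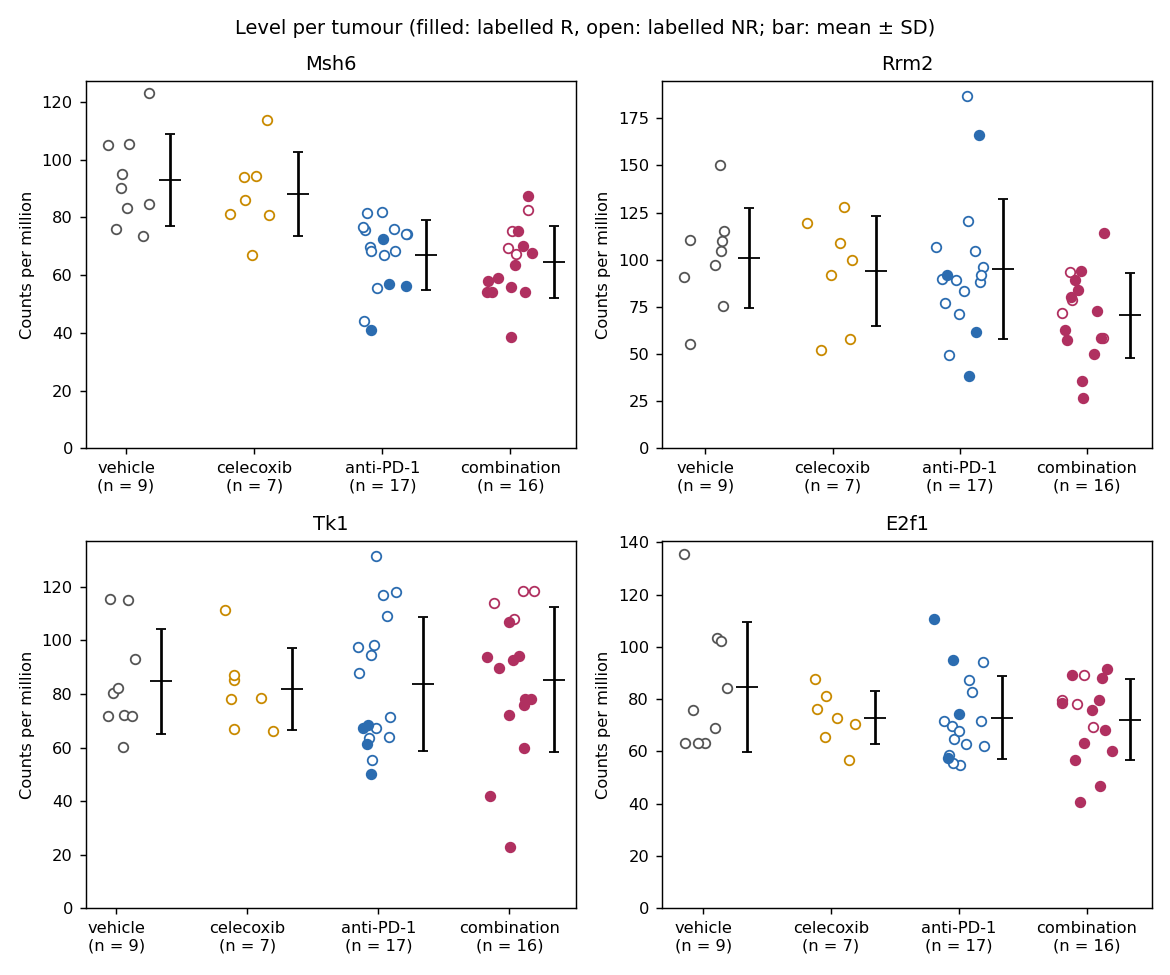
CPM of Msh6, Rrm2, Tk1 and E2f1 in each tumour, by treatment, with filled points for R, open points for NR and bars for the mean ± SD. Msh6 averages 92.9 CPM with vehicle and 64.5 CPM with the combination, and the 4 combination NR tumours have the highest Tk1 of that group.

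Of 7 other mismatch repair genes, none was called in the combination against vehicle, where 0.0729% of all genes were, and the median change was -0.10. Pms2, Exo1 and Msh3 had changes between -0.18 and -0.06, and Mlh3 (0.22) and Pms1 (0.12) were higher.

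Of the 34 members 29 were lower with the combination than with vehicle, with a median of -0.17, where 49.1% of all genes were lower. In the same comparison 18 of 19 skeletal muscle genes (median 3.43) and 20 of 20 T cell genes (median 0.92) were higher and 20 of 28 G2 and mitosis genes (median -0.10) were lower, none called. The muscle value leans on few libraries. The muscle list mean had a median of -0.10 log2 CPM with vehicle and 0.63 with the combination, where replicates 14 and 15 stood at 6.49 and 6.69. The member median was -0.16 with the muscle list mean as a covariate, -0.17 with the T cell list mean and -0.10 with the G2 and mitosis list mean, the last a setting added later.

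The replicative helicase had 8 of its 9 members lower with the combination than with vehicle, none called, with a median change of -0.24. Mcm3 (-0.28, SE 0.12), Mcm6 (-0.32, SE 0.19), Mcm4, Mcm5, Mcm2, Cdc45, Gins1 and Gins2 were lower, and Mcm7 was higher (0.23, SE 0.16). Mcm2 ran from 89.9 to 169 CPM with vehicle (median 126), 85.6 to 165 under celecoxib (127), 84.5 to 183 under anti-PD-1 (120.0) and 74.7 to 152 under both agents (118). These ranges overlap.

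Of the licensing genes, Cdt1, which loads the helicase, had a change of -0.33 (SE 0.11, adjusted p = 0.175) in the combination against vehicle. All 16 combination tumours lay below the vehicle median, as did 13 of 17 anti-PD-1 and 3 of 7 celecoxib tumours. Cdc6 and Mcm10 had changes of -0.09 and -0.11. Cdc6 ran from 9.86 to 29.1 CPM with vehicle (median 23.2), 16.1 to 37.3 under celecoxib (22.6), 8.39 to 36.6 under anti-PD-1 (21.8) and 7.71 to 28.1 under both agents (19.9). The groups overlap, and the lowest Cdc6 levels were those of combination replicate 14 and anti-PD-1 replicate 14.

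Among the G1/S regulators, E2f1, Ccne1 and Ccne2 (the last 2 encode cyclins E1 and E2) had changes of -0.21, -0.03 and -0.16. E2f1 ran from 63.2 to 136 CPM with vehicle (median 75.8), 56.6 to 87.7 under celecoxib (72.7), 54.8 to 111 under anti-PD-1 (69.8) and 40.8 to 91.4 under both agents (76.9). Ccne1 ran from 30.2 to 68.4 CPM with vehicle (median 36.5), 32.2 to 71.1 under celecoxib (41.9), 25.3 to 64.1 under anti-PD-1 (39.3) and 23.4 to 50.8 under both agents (40.4). The ranges of both genes overlap between all treatments.

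Among the polymerases, Pold1, the catalytic subunit of polymerase delta, had -0.44 (SE 0.18, adjusted p = 0.231), and Pole and Prim1 (primase) had -0.16 and -0.09. Pola1, of the polymerase that starts each primer, was higher (0.23, SE 0.15). Pcna and the clamp loader genes Rfc2, Rfc3, Rfc4 and Rfc5 were all lower, none called, with a median of -0.15. Pcna ran from 107 to 228 CPM with vehicle (median 139), 91.2 to 206 under celecoxib (142), 75.7 to 238 under anti-PD-1 (133) and 77.1 to 201 under both agents (126). Fen1, the flap nuclease, had -0.21, whereas Lig1 and Rpa2, which coats single strands, had 0.04 and 0.06.

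Of the nucleotide genes, Rrm2, the regulated subunit of ribonucleotide reductase, had -0.50 (SE 0.20, adjusted p = 0.228) against vehicle. Its levels ran from 55.1 to 150.3 CPM with vehicle (median 105), 52.01 to 128 under celecoxib (99.7), 38.1 to 187 under anti-PD-1 (90.0) and 26.4 to 114 under both agents (72.3). Of the 16 combination tumours 15 lay below the vehicle median, but 13 lay within the vehicle range. Rrm1, Tyms and Tk1 had -0.14, -0.28 and 0.03. Tyms ran from 46.3 to 114 CPM with vehicle (median 75.7), 51.3 to 114 under celecoxib (82.5), 29.4 to 111 under anti-PD-1 (76.9) and 34.2 to 87.1 under both agents (61.1). For chromatin copying, Chaf1a, which deposits histones behind the fork, had -0.37 (SE 0.11, adjusted p = 0.147). Below the lowest vehicle tumour lay 11 of 16 combination tumours, but also 8 of 17 anti-PD-1 and 4 of 7 celecoxib tumours. Uhrf1, which carries DNA methylation over to the new strand, had -0.18, with levels from 40.1 to 76.03 CPM with vehicle (median 56.1), 38.9 to 68.1 under celecoxib (56.2), 36.5 to 84.8 under anti-PD-1 (57.3) and 17.4 to 67.6 under both agents (49.6). Chaf1a was called (adjusted p = 0.0436) in 1 of its 10 settings, the fit without the 13 libraries with other tissue. Of 13548 genes that fit called 351 up and 259 down, and it called 2 of the 34 members. The adjusted p of Chaf1a ranged up to 0.227 in the other settings.

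Adding celecoxib to the antibody gave no member call with edgeR, where 0.503% of all genes were called. DESeq2 called no member either, with 215 of 13726 genes called up and 82 down. At an unadjusted p under 0.05 edgeR found 2 of 34 members against 17.2% of all genes. Of the 34 members 27 were lower with the combination than with anti-PD-1 alone, with a median of -0.09 against 0.00 over all genes. The smallest p were those of Rrm2 (-0.41, SE 0.17, adjusted p = 0.202), Chaf1a (-0.22, SE 0.09, adjusted p = 0.213) and Mcm5 (-0.27, SE 0.14, adjusted p = 0.291). The Rrm2 change turned to 0.06 (SE 0.29, adjusted p = 0.975) with the clock measure as a covariate. That measure differs between the compared groups, so the fit cannot tell clock and treatment apart. The adjusted p of Rrm2 over the 10 other settings ran from 0.163 to 0.975. The median moved to -0.06 without combination replicate 14. Without the 13 libraries with other tissue, 20 members were lower and the median was -0.03, and with the G2 and mitosis list mean as a covariate, added later, 17 were lower and the median was -0.01.

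Celecoxib alone left 21 of 34 members lower, with a median of -0.03 and no call. The smallest p were those of Cdc45 (-0.29, SE 0.17), E2f1 (-0.23, SE 0.16) and Rrm1 (0.19, SE 0.16), none near the limit after adjustment. At an unadjusted p under 0.05 edgeR found 0 members and 314 of 13726 genes, and DESeq2 called 0 members. This median turned above 0 without vehicle replicate 1, 2 or 5 or celecoxib replicate 7, to at most 0.03. It was 0.01 (15 lower) with the muscle list mean as a covariate and -0.08 (28 lower) without the libraries with other tissue, which include celecoxib replicates 1 and 3 with muscle list means of 7.69 and 6.997. The celecoxib effect with the antibody minus that without it had a median of -0.07 and no call among members or all genes (0%). Rrm1 (-0.32, SE 0.20), Tyms (-0.34, SE 0.24) and E2f1 (0.22, SE 0.20) had the smallest p there, and the median was 0.08 without the 13 libraries with other tissue.

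**Figure D3:**
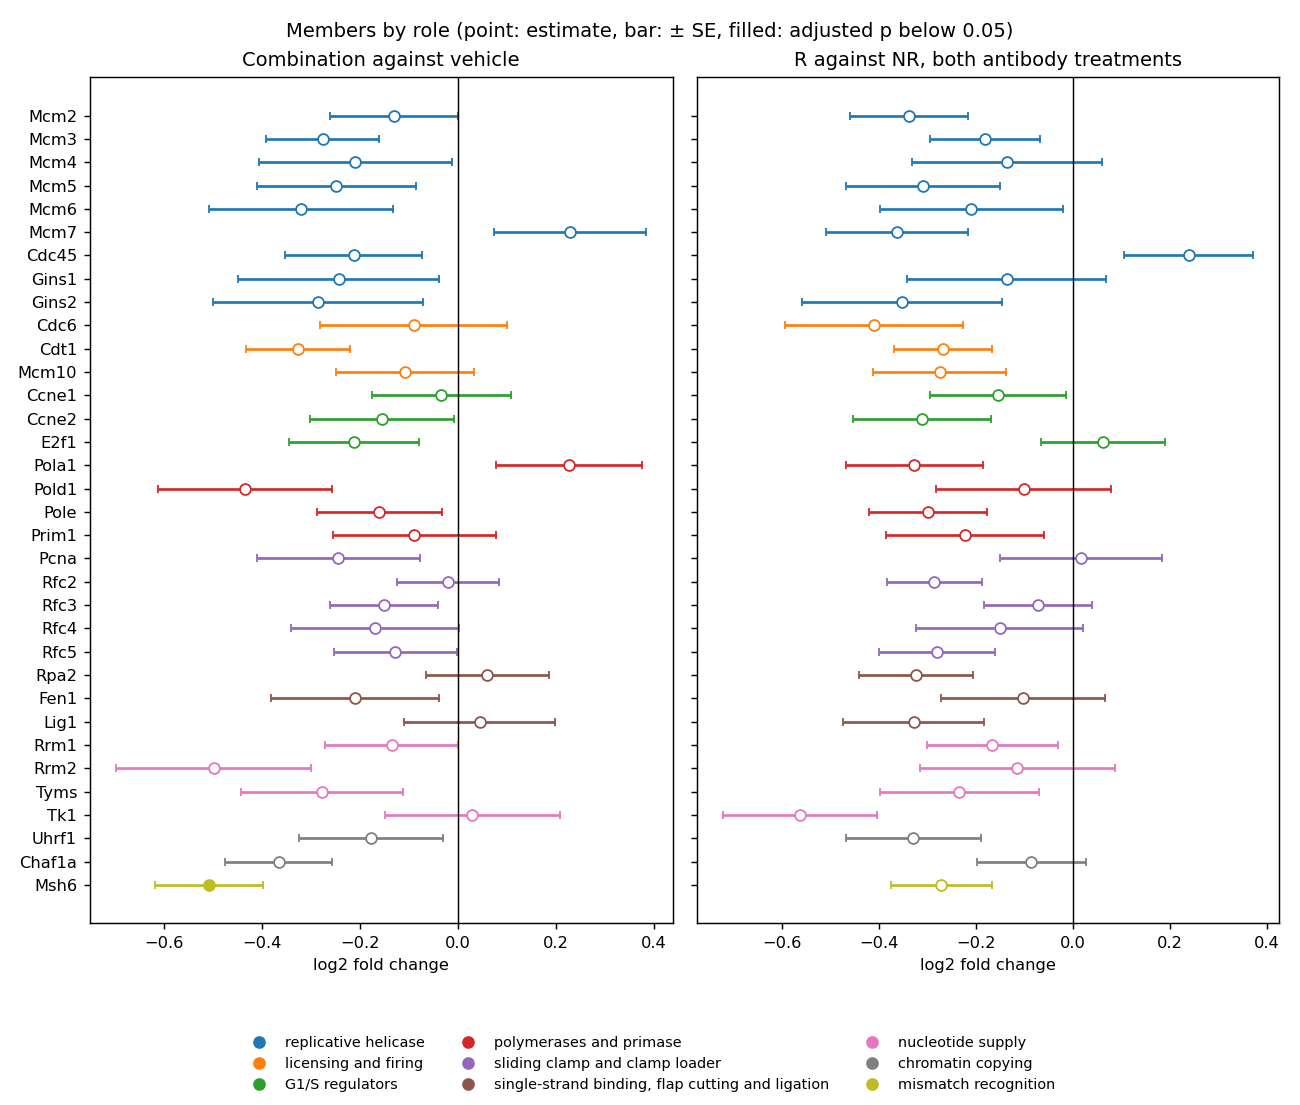
Log2 fold change (point) ± SE (bar) of each member, coloured by role, for the combination against vehicle (left) and for R against NR over both antibody treatments (right), with filled points for calls. Msh6 at -0.51 is the only filled point, and 29 points on the left and 31 on the right lie below 0.

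No member was called between R and NR tumours. Over both antibody treatments 31 of 34 members were lower in R, with a median change of -0.25 against 0.02 over all genes. The exceptions were Cdc45, E2f1 and Pcna. Of all genes 45.7% were lower. At an unadjusted p under 0.05 edgeR found 14 members, all lower, where 6.38% of all genes were lower at that p. For comparison 0.0491% of all genes were called over both treatments, and 0% within either. Tk1, which recycles thymidine, had the smallest p (-0.56, SE 0.16, adjusted p = 0.112). Under the combination Tk1 was at 118, 118, 114 and 108 CPM in the 4 NR tumours and at 22.9 to 107 CPM (median 78.2) in the 12 R tumours, so these did not overlap. Under anti-PD-1 it was at 49.9, 61.5, 67.3 and 68.5 CPM in the R tumours and at 55.3 to 131 CPM (median 94.3) in the 13 NR tumours, which overlapped. DESeq2 called Tk1 (adjusted p = 0.0472), in a fit that called 101 of 14247 genes up and 66 down. Over all 9 other settings the adjusted p of Tk1 ran up to 0.866. Rfc2 (-0.29, SE 0.10, adjusted p = 0.167), Rpa2 (-0.32, SE 0.12, adjusted p = 0.192) and Mcm2 (-0.34, SE 0.12, adjusted p = 0.195) followed.

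Within each treatment 31 members were lower in R. At an unadjusted p under 0.05 edgeR found 7 members under anti-PD-1, against 6.48% of all genes, and 6 under the combination, against 9.11%, and DESeq2 called 0 in either. Of all genes 49.3% and 46.1% were lower in R. Under anti-PD-1 the median was -0.26, and the smallest p were those of Pole (-0.46, SE 0.18, adjusted p = 0.734), Cdt1 (-0.35, SE 0.15) and Tk1 (-0.54, SE 0.23). Under the combination the median was -0.17, and Tk1 (-0.59, SE 0.22, adjusted p = 0.445), Uhrf1 (-0.44, SE 0.19) and Lig1 (-0.44, SE 0.20) led. The difference between the treatments gave no call (0% of all genes), and E2f1 (-0.46, SE 0.25), Pole (0.32, SE 0.25) and Gins2 (-0.40, SE 0.41) had the smallest p. The median difference of 0.06 turned to -0.08 without anti-PD-1 replicate 12 and -0.06 without anti-PD-1 replicate 14.

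These medians lean on few tumours. Under anti-PD-1 the median was -0.12 without R replicate 12, -0.17 without R replicate 14 and -0.40 without R replicate 15. Over both treatments it was -0.15 without anti-PD-1 replicate 12, and under the combination it was -0.11 without R replicate 14. Other lists differed between R and NR in the same tumours. Of 28 G2 and mitosis genes 26 were lower in R over both treatments (median -0.33), and of 17 hypoxia and glycolysis genes 16 were higher (median 1.05), none called. All 19 skeletal muscle genes (median 1.80) and all 20 T cell genes (median 0.59) were higher in R, none called. The part of these lists in the members' values was not tested apart from the settings that follow. With the G2 and mitosis list mean as a covariate, a setting added later, 22 members were lower in R and the median was -0.07. Without the 13 libraries with other tissue, 6 of which are labelled R, the median over both treatments was -0.21.

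Immune content differed widely within groups. The T cell list mean was 2.58 ± 0.87 log2 CPM (SD, n = 9) in vehicle tumours, 2.50 ± 0.90 (n = 7) after celecoxib, 2.12 ± 1.23 (n = 17) after anti-PD-1 and 3.17 ± 1.34 (n = 16) after both agents. By label it was 1.73 ± 1.92 (n = 4) in R and 2.23 ± 1.01 (n = 13) in NR under anti-PD-1, and 3.41 ± 1.43 (n = 12) in R and 2.44 ± 0.76 (n = 4) in NR under the combination. The member mean was lower in R under both, at 5.87 ± 0.42 against 6.16 ± 0.18 and at 5.91 ± 0.29 against 6.16 ± 0.07, while the T cell mean was lower in R under the first and higher under the second. The member mean of each tumour was set beside the list means. After removal of treatment means, r was 0.77 with the G2 and mitosis list, 0.74 with 7 other mismatch repair genes and -0.55 with hypoxia and glycolysis (n = 49). Without the 2 tumours farthest from the median these were 0.66, 0.65 and -0.46. With immune lists r was low: 0.05 for T cells, 0.12 for cytotoxic lymphocytes, -0.13 for B cells, 0.24 for macrophages and -0.27 for neutrophils. Without the 2 tumours farthest from the median these were -0.18, -0.08, -0.09, 0.06 and -0.0027, so the values for T cells and cytotoxic lymphocytes changed sign and those for macrophages and neutrophils rest on those tumours. The treatments did not share a direction for T cells, with r of 0.35 with vehicle, -0.17 after celecoxib, 0.27 after anti-PD-1 and -0.20 after both agents. For neutrophils r was 0.60 with vehicle and -0.60 after both agents. The neutrophil list mean was low, at 0.54 ± 0.12 log2 CPM (SD, n = 9) with vehicle and 0.62 ± 0.42 (n = 16) after both agents. That of B cells was lower still, at -0.72 ± 0.43 and -0.75 ± 0.34 in the same groups. The r values of these 2 lists thus rest on genes near the lower end of detection. All these values share library and depth within a tumour and carry no test.

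**Figure D4:**
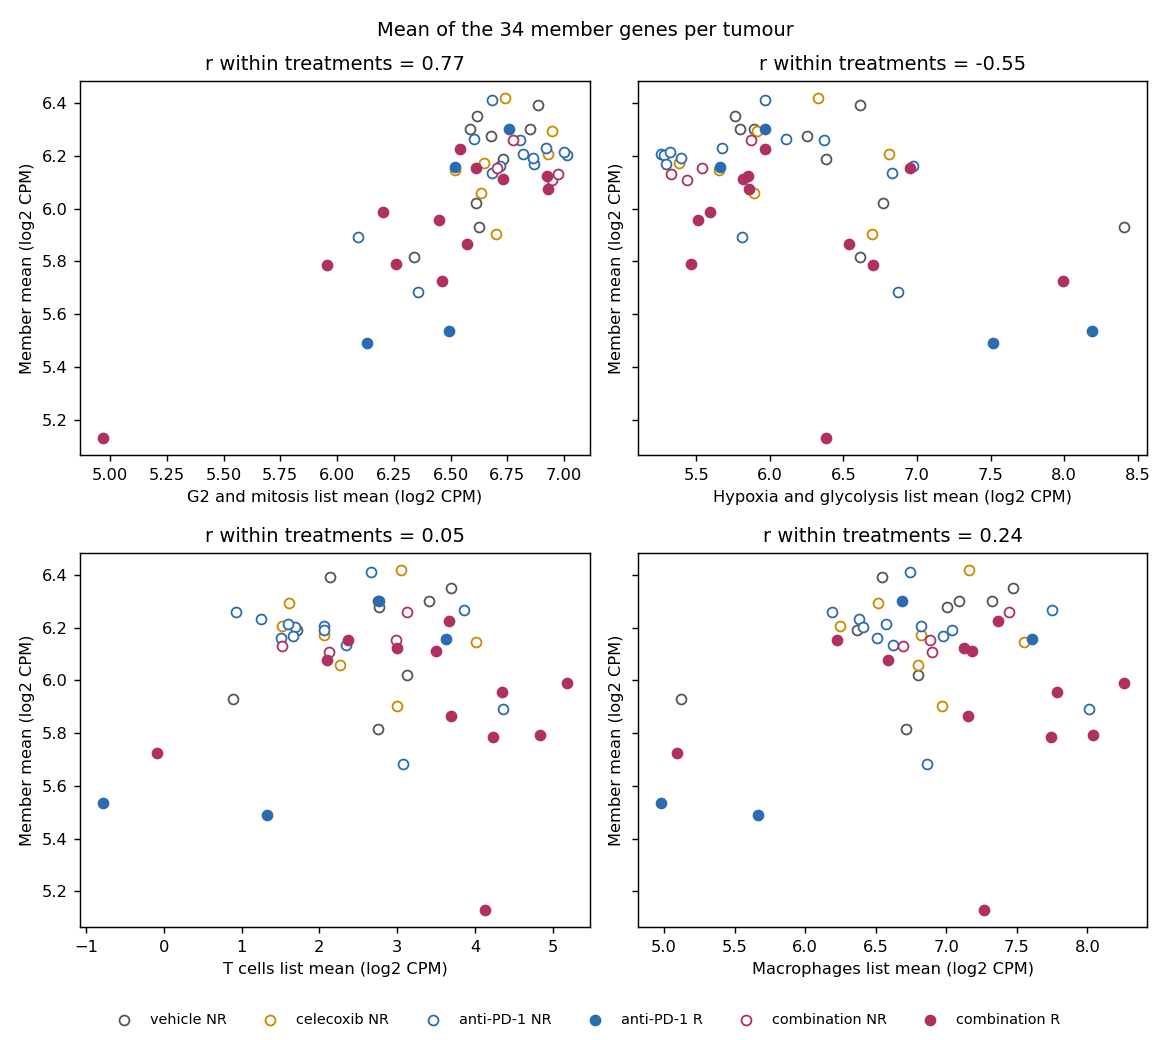
Mean log2 CPM of the 34 members in each tumour against the mean log2 CPM of 4 gene lists, coloured by treatment and filled for R. The cloud rises with the G2 and mitosis list (r = 0.77) and falls with hypoxia and glycolysis (r = -0.55), and r with T cells is 0.05.

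Single members were related to immune content, some above and some below 0. Slopes are log2 changes per log2 unit of a list mean, with treatment held. On the T cell list 6 of 34 members (17.6%) were called, against 34.9% of all genes. On the macrophage list 12 of 34 (35.3%) were called, against 36.1% of all genes. The members' shares are thus at or below that of genes in general. E2f1 fell on both, by 0.12 per unit of the T cell list (SE 0.04, adjusted p = 0.00531) and by 0.26 per unit of the macrophage list (SE 0.06, adjusted p = 0.000173). Its call held in 10 of 11 and 11 of 11 other settings.

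Several loading and helicase genes had slopes above 0. On the macrophage list Gins1 rose by 0.37 (SE 0.10, adjusted p = 0.00200), Cdc6 by 0.35 (SE 0.09, adjusted p = 0.00240), Mcm10 by 0.22 (SE 0.07), Mcm6 by 0.27 (SE 0.09) and Mcm5 by 0.24 (SE 0.08). Tyms (0.23), Ccne1 (0.19), Rpa2 (0.18), Rfc3 (0.15) and Rfc2 (0.14) were also called above 0, and Cdc45 below it (-0.16, SE 0.06). Gins1 kept its call in 10 and Cdc6 in 11 of 11 other settings. The other 9 called members kept theirs in 4 to 8 settings, Cdc45 in the fewest. On the T cell list Gins1 (0.16, SE 0.06), Cdc6 (0.14, SE 0.06), Ccne1 (0.10, SE 0.04) and Rfc3 (0.08, SE 0.03) rose, and Mcm2 fell by 0.11 (SE 0.04, adjusted p = 0.0354). Of these, each kept its call in 3 to 7 of 11 other settings. Msh6 had a slope of -0.07 (SE 0.03, adjusted p = 0.0798) on T cells and -0.05 (SE 0.06, adjusted p = 0.515) on macrophages.

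**Figure D5:**
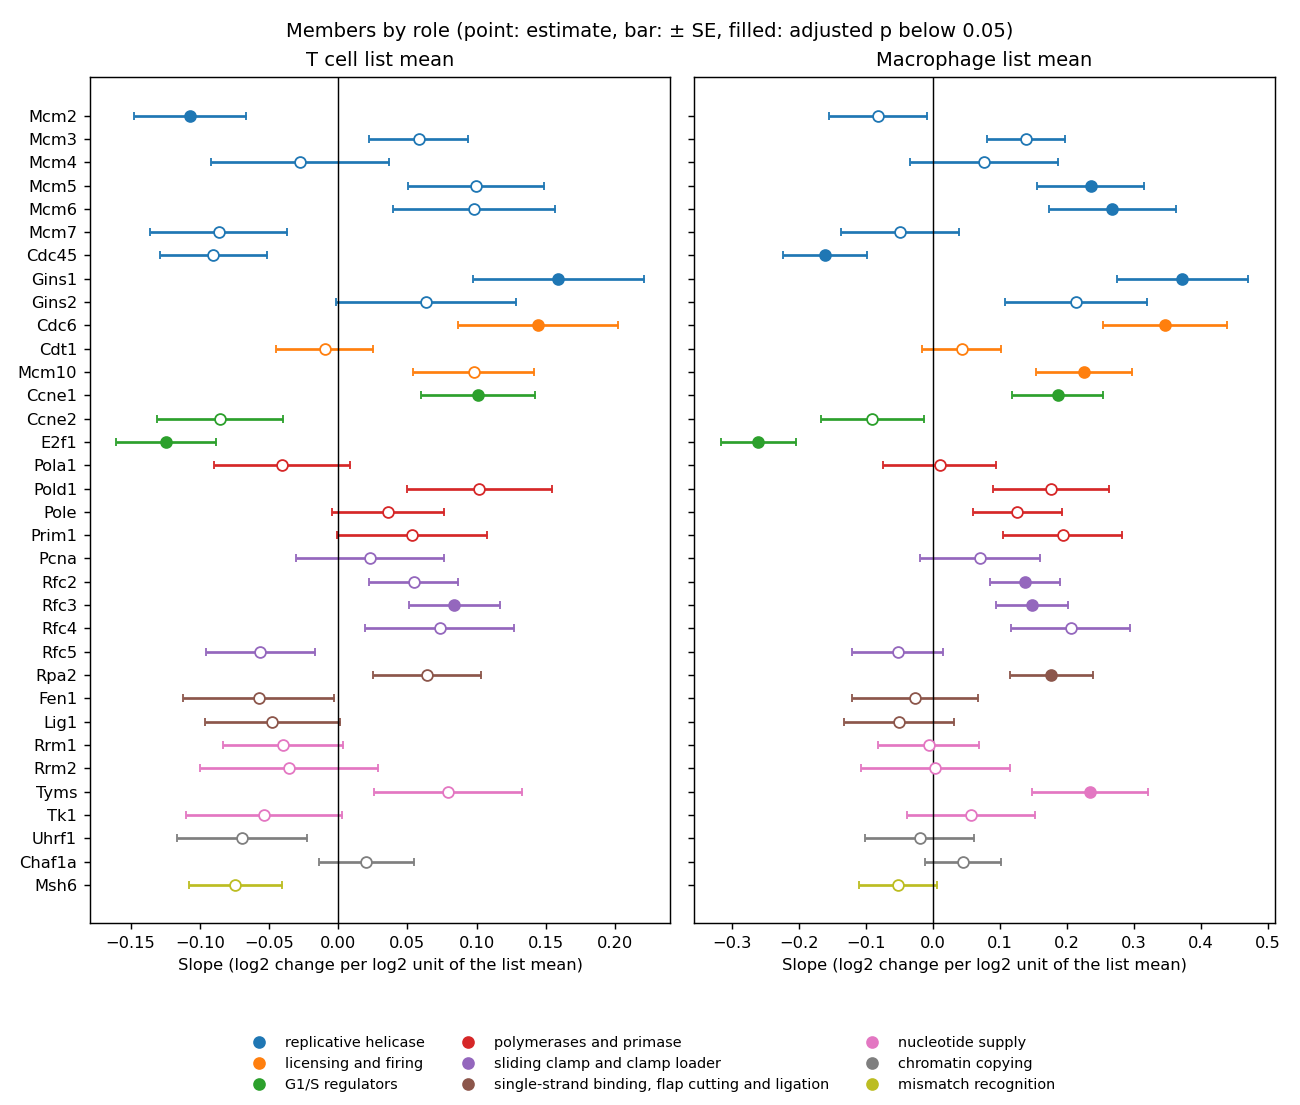
Slope (point) ± SE (bar) of each member on the T cell list mean (left) and the macrophage list mean (right), with treatment held and filled points for calls. E2f1 is below 0 on both sides (-0.12 and -0.26), and Gins1 and Cdc6 are the highest points on both.

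The counts of calls depended on which tumours and terms entered. In the 33 antibody-treated tumours alone, 0 members were called on T cells and 3 on macrophages. Calls over 13926 genes there were 2223 above 0 and 1694 below on T cells, and 2172 and 1799 on macrophages. Without the 2 tumours whose list mean lay farthest from the median, 6 and 4 members were called. Calls over all genes were then 2322 above 0 and 2054 below (13858 tested), and 2565 and 1561 (14216 tested). With the G2 and mitosis list mean as a covariate, added later, 16 and 18 members were called, and 29 of 34 slopes on each list were above 0. Calls over 14047 genes were then 2706 above 0 and 2569 below on T cells, and 2869 and 2681 on macrophages. Of 28 G2 and mitosis genes themselves, 11 fell with the T cell list and 2 with the macrophage list, and none rose. Those calls are from the main fits, which called 34.9% and 36.1% of all genes.

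Other genes of the pathway were compared in 6 lists. In the combination against vehicle none was called, where 0.0729% of all genes were. In the order of the lists, the smallest p were those of Mcm9 (0.44, a helicase relative) among helicase and firing genes, Rpa1 (-0.36) among polymerase and clamp genes, Mthfd1 (-0.37) among nucleotide genes, Dnmt1 (0.38) among chromatin genes and E2f3 (0.54, adjusted p = 0.147) among E2F, RB and G1 genes. Of the 20 polymerase and clamp genes 18 were lower, and of the 22 helicase and firing genes 11, where 49.1% of all genes were lower. Between R and NR over both treatments none was called either, where 0.0491% of all genes were. In R 18 of 22, 14 of 20, 12 of 13, 10 of 12, 7 of 7 and 17 of 27 were lower, where 45.7% of all genes were. Timeless (-0.44), Ung (-0.54), Cad (-0.21), Suv39h1 (-0.30) and Cdkn1a (0.70) had the smallest p of their lists.

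The slopes of these genes went both ways. For comparison, 36.1% of all genes were called on the macrophage list and 34.9% on the T cell list. Of 22 other helicase and firing genes, 3 rose and 2 fell with the macrophage list, namely Mcm9 (0.38, SE 0.08), Gins4 (0.17) and Mcmbp (0.10) above 0, and Orc6 (-0.32, SE 0.12) and Dbf4 (-0.16) below it. Of 20 other polymerase and clamp genes, Pole2 fell (-0.32, SE 0.08), and Ung (0.30) and Chtf18 (0.24) rose. Among 13 other nucleotide genes Rrm2b fell (-0.31, SE 0.09) and Umps rose (0.22). Of 12 other chromatin genes none was called. Among the mismatch repair genes Mlh3 fell (-0.26, SE 0.07). Of 27 other E2F, RB and G1 genes Cdkn1a, Cdk4 and Cdk6 fell, and Rbl2 and E2f2 rose. On the T cell list Mcm9, Mcmbp and Rbl2 rose. Orc6, Dbf4, Wdhd1, Pole2, Dut, Paics, Rrm2b, Cad, Rbbp4, Rbbp7, Mlh3, Cdk4, E2f8, Ccnd1, E2f7 and Cdkn1b fell with it, the largest fall being that of E2f8 (-0.28, SE 0.07, adjusted p = 0.00220). In the combination against anti-PD-1, the only call in these 6 lists was Rbl2, an RB family member, where 0.503% of all genes were called. Rbl2 rose by 0.53 (SE 0.11, adjusted p = 0.0170). With the clock measure as a covariate no gene at all was called in that comparison, so the Rbl2 call was lost. The measure differs between anti-PD-1 (0.65 ± 0.62, SD) and the combination (3.12 ± 0.98), so that fit cannot tell clock and treatment apart.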

How the data were processed

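Bulk RNA of 49 tumours was sequenced with QuantSeq 3′ libraries (forward kit), per the labels' protocols. The deposited table holds raw read counts per gene. bcl2fastq, STAR, featureCounts, limma and the builds mm10 and GRCm38 are named in the submitters' processing notes; the sources used here give neither versions nor a strand setting. A deposited table of log2 values for 16559 genes matched log2 CPM of those counts with TMM scaling, and served only as that check.

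Members and gene lists were chosen with earlier results of these data known. Groups came from the treatment and response labels. Counts were tested with edgeR 4.0.16 (quasi-likelihood, TMM, filterByExpr, robust) in R 4.3.3, with Benjamini-Hochberg adjustment over all genes tested and a limit of 0.05. One fit held the 4 treatments (13726 genes), one the 6 groups of treatment and response (14247), and 2 fits held treatment and a list mean (14047). Levels are CPM from TMM-scaled counts, and log2 CPM used a prior count of 2. Named were every called member, the 3 members with the smallest p in each comparison, 9 members representing roles, and in the other pathway lists the called genes or the gene with the smallest p; further members were named after their values were seen. Alternatives were DESeq2 1.42.0, limma-voom (limma 3.58.1), other scaling, no filter, covariates, the compared groups alone, and leaving out libraries; the G2 and mitosis covariate and the contrast of both antibody treatments were added after seeing the data. Scripts were tested on simulated data. Depth was 4251251 to 13671294 counts per library, which limits the precision of members with few counts. The most alike pair of libraries (r = 0.979) had a chi-square of 14.7 per gene, above sampling noise. Promoter windows came from RefSeq tables on GRCm38.p6. Some genes of the pathway lists are not reported here.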

Additional observations from a re-analysis of the deposited data

Results flagged for a closer look

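Ccne1, which encodes cyclin E1, stood apart in celecoxib replicate 1. It was at 6.16 log2 CPM there, and the next of the 7 celecoxib tumours was at 5.48, a gap of 0.594 of the group's range. This was 1 of 100 groups of values checked, and chance flags about 1 in 20. The same tumour had a skeletal muscle list mean of 7.69 log2 CPM and the highest member mean of all tumours (6.42); the part of either in the Ccne1 value was not tested.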

How the results depend on the processing

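No paired analysis was possible because replicate numbers were given in accession order and pair no tumours. Of the counts of members called, 403 recomputed values stayed within the limits set for them and 39 moved. Medians over members are not in that tally. Of values of single members, 1355 kept direction and side of the threshold, 94 lost a call, 8 gained one and 1 reversed. The reversed value was Rrm2 in the combination against anti-PD-1, at 0.062 with the clock measure, which differs between these groups, as covariate. The count of members called in the combination against vehicle was 1 in the main fit. It went to 0 with limma-voom, no filter, the clock measure or the compared groups alone. Without libraries with other tissue it went to 2, where 351 of 13548 genes were called up and 259 down. Leaving out 1 library gave 0 to 1. In anti-PD-1 against vehicle it went from 0 to 1 with DESeq2 or with the T cell or the G2 and mitosis list as covariate, and leaving out 1 library gave 0 to 1. In antibody against no antibody it was 0 with the clock measure. In R against NR over both treatments it was 1 with DESeq2, where 101 of 14247 genes were called up and 66 down. On the T cell list 6 calls became 2 with limma-voom, 1 without a filter and 3 without a treatment term. They became 0 in antibody-treated tumours alone and 16 with the G2 and mitosis covariate. All-gene calls were 2516 above 0 and 2503 below, 2737 and 2247, 2513 and 2314, 2223 and 1694, and 2706 and 2569, in that order. On the macrophage list 12 calls became 6 without other-tissue libraries and 7 without a treatment term. They became 3 in antibody-treated tumours alone and 4 without the 2 farthest tumours. All-gene calls were 2414 above 0 and 2165 below, 2646 and 2364, 2172 and 1799, and 2565 and 1561, in that order. The cause of these moves was not tested, apart from fits with fewer tumours.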
